A study of Sus scrofa with 12 samples.

Results

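The transcription factors described here are 10 genes that act in endothelial or blood-forming cells, namely ERG, FLI1, ETV2, ETS1, ETS2, SOX18, SOX7, TAL1, LMO2 and KLF2. They were looked up by their Ensembl pig symbols among the 19681 gene identifiers of 12 RNA sequencing libraries, and 8 of the 10 were found. SOX7 and TAL1 could not be matched to an identifier in the tables and are not analysed here. The libraries came from 4 groups of 3 biological replicates each, lettered A, B and C. IEC2, IEC4 and IEC12 are porcine iPS cells taken 2, 4 and 12 days into endothelial induction. The cells grew on Matrigel and received CHIR99021, an inhibitor of GSK3 that activates WNT signalling, until day 2. BMP4, FGF2 and VEGF followed until day 4, and the endothelial medium EGM-2 with VEGF until day 12. AOC is an established porcine endothelial cell line, so its 3 libraries are repeats of 1 line in culture and not different animals. IEC12 is the whole day-12 culture, from which the study also sorted CD31-positive cells. The sorted cells and the iPS cells before induction are not analysed here.

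ETS factors share a DNA-binding domain and occupy most enhancers that are active in endothelium. ETV2 is the early, transient member that starts the endothelial and blood programme in mesoderm, and ERG and FLI1 keep endothelial genes on in mature vessels. ETS1 and ETS2 are close relatives of each other with broader roles, in blood vessel growth and in trophoblast among others. LMO2 has no DNA-binding domain and bridges TAL1 or LYL1 to GATA factors in haemogenic endothelium, the endothelium from which blood cells bud. SOX18 and SOX7 belong to the SOXF group of vascular factors, and KLF2 is induced by blood flow and drives anti-inflammatory endothelial genes.

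The values are FPKM, in which fragments are divided by transcript length and by the total of the library, which allow levels of different genes to be compared per length. They summed to 335976.4 to 457193.7 per library, and 8357 to 10467 genes per library reached an FPKM of 1. Pearson's r between replicates was 0.968 to 0.993 across genes on the log2 scale. It was lowest between IEC12 replicates A and C, while B and C of that group were at 0.991. IEC12 replicate A also had the highest summed FPKM. The number of reads is unknown, so a value of 0 is described only as listed at 0. None of 6 housekeeping genes found was at 0 in any library. Levels of 11 endothelial markers were checked in the groups, and 9 of the markers were found. Their summed FPKM was 276 to 393 in AOC. It was 5.502 to 9.22 at day 2 (IEC2), 4.42 to 5.54 at day 4 and 0.684 to 2.58 at day 12. CDH5, the endothelial cadherin, was at 0 in all 9 IEC libraries, and 7 of the 9 markers had a mean of at least 1 in AOC against 0 of 9 in IEC12. The IEC groups are therefore called by their day of induction below. By flow cytometry, the paper found CD31 protein on a minority of cells at the last stage. It also reports other endothelial proteins in the cells sorted from that culture. PECAM1, the gene of CD31, was 0.0198 to 0.106 FPKM in IEC12 and 91.7 to 131 in AOC. Why its RNA was this low beside the reported protein was not tested. In these bulk libraries, fewer cells of a type and less RNA per cell cannot be told apart.

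ERG and FLI1 were the leading members in AOC and were close to absent from the tables of all 3 induction stages. FLI1 (ENSSSCG00000015237) lies on chromosome 9 at 55612905 to 55749784 of the Sscrofa11.1 assembly. Its FPKM in AOC was 56.1, 50.7 and 55.1 in replicates A, B and C. In the 9 IEC libraries it was listed at 0 in 8 and at 0.0455 in IEC12 replicate B. The lowest AOC library thus lay far above every IEC library, and the mean in AOC was 54.0 ± 2.86 (SD, n = 3), at percentile 91.7 of the genes above 0 there. ERG (ENSSSCG00000022318) lies on chromosome 13 at 201999237 to 202302572. Its FPKM in AOC was 29.7, 27.1 and 18.7, with a mean of 25.2 ± 5.75 (SD, n = 3) at percentile 85.3. Replicate C was the lowest of the 3 for ERG but not for FLI1.

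Among the induced cells, ERG stayed below an FPKM of 1 in every library. In IEC2 it was 0.0255, 0.0580 and 0.118. In IEC4 it was 0.424, 0.195 and 0.0248, so that replicates A and B lay above all of IEC2 and replicate C below all of it. In IEC12 it was 0.00942 in replicate A and 0 in replicates B and C, below every library of the other groups. By group means, the order of ERG was AOC, IEC4, IEC2 and IEC12, where IEC4 and IEC2 overlapped.

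Differences on the log2(FPKM + 1) scale were tested with limma in genes that reached an FPKM of 1 in at least 3 libraries of the fit, and adjusted with Benjamini-Hochberg over all genes tested. ERG and FLI1 passed this filter only through AOC, so a difference between AOC and the stages was built into their passing. For FLI1 the difference of AOC from IEC2, IEC4 and IEC12 was 5.78, 5.78 and 5.76 (SE 0.12 each), with limma's adjusted p of 1.29e-11, 1.35e-11 and 1.57e-11. For ERG it was 4.59, 4.42 and 4.68 (SE 0.183 each), with limma's adjusted p of 1.67e-09, 3.05e-09 and 1.71e-09. The ratio of mean ERG FPKM was 375 against IEC2 and 117 against IEC4. No ratio is given for FLI1, or for ERG against IEC12, because these groups held libraries at 0. The 3 comparisons with AOC share its 3 libraries and are not independent of each other.

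**Figure D1:**
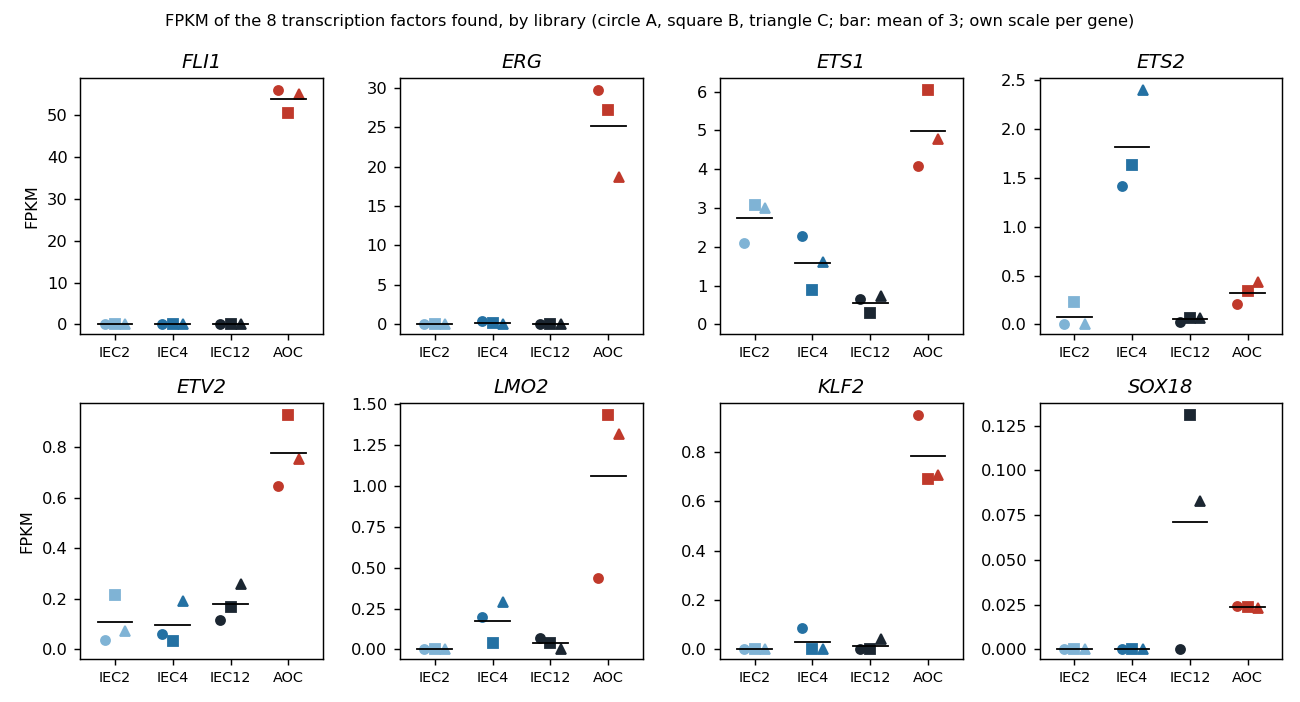
FPKM (vertical axes, linear, 1 scale per gene) of the 8 factors found in each of the 12 libraries, grouped as IEC2, IEC4, IEC12 and AOC, with circles, squares and triangles for replicates A, B and C and a bar for the mean of 3. FLI1, ERG, ETS1, ETV2, LMO2 and KLF2 are highest in all 3 AOC libraries, ETS2 is highest in the 3 IEC4 libraries, and SOX18 never exceeds 0.131.

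ETS1, in contrast, was measured in all 12 libraries and was lower at each later stage by its group mean. ETS1 (ENSSSCG00000015235) lies on chromosome 9 at 55377264 to 55512180. Its FPKM was 2.11, 3.09 and 3.001 in IEC2 (mean 2.73 ± 0.543, SD, n = 3). In IEC4 it was 2.27, 0.879 and 1.60 (mean 1.58 ± 0.698, SD, n = 3). The IEC4 libraries spread widely, and replicate A lay within the range of IEC2. In IEC12 it was 0.656, 0.306 and 0.734 (mean 0.565 ± 0.228, SD, n = 3), below every library of the earlier stages. AOC had the highest values, 4.10, 6.05 and 4.78 (mean 4.98 ± 0.994, SD, n = 3), above every IEC library.

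ETS1 fell between day 2 and day 12, by 1.25 on the log2 scale (SE 0.238, limma's adjusted p = 0.00235). Its mean FPKM was 4.84-fold lower at day 12. In the fit of the stages ETS1 reached an FPKM of 1 in 3 IEC2 and 2 IEC4 libraries, and in 0 of IEC12. Its earlier levels were thus part of why it was tested. With no filter on low values, limma's adjusted p for IEC12 against IEC2 was 0.00796. The first step, IEC4 against IEC2, did not pass the test, with a difference of -0.56 (SE 0.238, limma's adjusted p = 0.0931). It passed without IEC4 replicate A, at -0.75 (limma's adjusted p = 0.0438). The second step, IEC12 against IEC4, passed with a difference of -0.70 (SE 0.238, limma's adjusted p = 0.0376). That call was lost when IEC4 replicate A, IEC4 replicate C, IEC12 replicate A or IEC12 replicate B was left out, with limma's adjusted p of 0.123, 0.0814, 0.0597 and 0.134. It was also lost with no filter on low values (limma's adjusted p = 0.0719). Median-of-ratios scaling changed which step was called, since IEC4 against IEC2 then passed at -0.70 (limma's adjusted p = 0.0286) and IEC12 against IEC4 did not, at -0.55 (limma's adjusted p = 0.0637). Which of the 2 steps carried the fall was therefore not resolved.

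AOC held more ETS1 than each stage. Its mean FPKM was 1.82-fold that of IEC2 (log2 difference 0.68, SE 0.225, limma's adjusted p = 0.0197). The call against IEC2 was lost without AOC replicate B or without IEC2 replicate A (limma's adjusted p = 0.0819 and 0.0706), and also with a pseudocount of 0.1 or with libraries scaled to equal totals. Against IEC4 the ratio was 3.14 (log2 difference 1.23, SE 0.225, limma's adjusted p = 0.000441). Against IEC12 it was 8.81 (log2 difference 1.93, SE 0.225, limma's adjusted p = 1.55e-05).

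ETS2 had a different pattern, with its highest level at day 4. ETS2 (ENSSSCG00000038948) lies on chromosome 13 at 202464341 to 202483534. Its FPKM in IEC4 was 1.41, 1.64 and 2.40 (mean 1.82 ± 0.517, SD, n = 3). In IEC2 it was 0.00813, 0.229 and 0, and in IEC12 0.0240, 0.0693 and 0.0692. In AOC it was 0.206, 0.341 and 0.434 (mean 0.327 ± 0.115, SD, n = 3). Every IEC4 library was above every library of the other groups, and IEC2 and IEC12 overlapped. AOC lay above all of IEC12, while IEC2 replicate B fell within its range.

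ETS2 rose from day 2 to day 4, by 1.38 on the log2 scale (SE 0.178, limma's adjusted p = 0.000339), and fell from day 4 to day 12, by 1.40 (SE 0.178, limma's adjusted p = 0.000331), a 33.5-fold lower mean FPKM. It passed the filter on low values only through IEC4, so its level there was part of why it was tested. IEC12 and IEC2 differed by -0.03 (SE 0.178, limma's adjusted p = 0.913). Against AOC, IEC4 had the higher level, with AOC lower by 1.07 on the log2 scale (SE 0.152, limma's adjusted p = 6.34e-05) and a mean FPKM 5.56-fold lower. AOC did not pass the test against IEC2 (difference 0.30, SE 0.152, limma's adjusted p = 0.102) or IEC12 (difference 0.33, SE 0.152, limma's adjusted p = 0.0825). Both of these passed with a pseudocount of 0.1, at limma's adjusted p of 0.0182 and 0.0199, and with median-of-ratios scaling, at 0.0427 and 0.0353.

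The summed level of epithelial markers was highest in the same 3 libraries as ETS2. Of 7 such markers 6 were found, and their summed FPKM was 329, 478 and 895 in IEC4 replicates A, B and C. The sum was 22.7 to 31.3 in IEC2, 5.17 to 16.5 in IEC12 and 0 to 0.0993 in AOC. CDH1 and KRT18 were at 0 in all AOC libraries, and EPCAM in all IEC2 libraries. KRT8, a keratin of simple epithelia, made up most of the IEC4 sum, with an FPKM of 300.4, 434.9 and 747.8. Not every marker followed the sum. ESRP1, a splicing regulator of epithelia, was 8.83, 10.1 and 11.3 in IEC2 against 4.83, 7.91 and 12.4 in IEC4, and EPCAM was 0.166 and 0.207 in IEC4 replicates A and B, below the 0.333 of IEC12 replicate A. Over IEC4 replicates A, B and C, ETS2 had the same order as this sum, at 1.41, 1.64 and 2.40. Without IEC4 replicate C, the library with the highest sum, ETS2 was higher in IEC4 than in IEC2 by 1.23 (limma's adjusted p = 0.000713). The sums of replicates A and B were also above all of IEC2, so leaving out C cannot separate ETS2 from these markers.

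Some markers of other cell types were also highest at day 4. Of 8 mesoderm markers 7 were found, and their summed FPKM was 8.88 to 12.1 in IEC4 against 3.41 to 5.59 over the other 9 libraries. HAND1 made up most of it, at a mean of 7.65 in IEC4, 0 in IEC2 and 0.605 in IEC12. TBX6 was also highest in IEC4, at a mean of 0.163. PDGFRA went the other way, at 4.24, 0.586 and 1.34 by mean in IEC2, IEC4 and IEC12. MESP1 and MESP2 were highest in AOC by mean, with MESP2 at 1.38 in IEC4, 2.19 in IEC12 and 3.15 in AOC. MIXL1 and EOMES were at 0 in all libraries. Of 8 pluripotency markers 3 were found, and their sum was 7.52 to 8.80 in IEC4 and at most 4.82 in any other library. Among them LIN28A had a mean of 4.27 in IEC4, 0 in IEC2 and 0.269 in IEC12. DNMT3B stayed up, with means of 0.478, 3.75 and 2.97 in IEC2, IEC4 and IEC12. NANOG was highest at day 12, with means of 0.0517, 0.350 and 0.732 in the same order. All 10 mural and fibroblast markers were found, and their sum was lower in IEC4 (50.2 to 63.4) than in IEC2 (80.4 to 112). Even so, COL1A1 (0.341, 5.59 and 0.0595 by mean in IEC2, IEC4 and IEC12) and ACTA2 (0.0979, 3.11 and 0.0874) peaked among the stages at day 4. The part of any of these cell types in the ETS2 values was not tested.

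**Figure D2:**
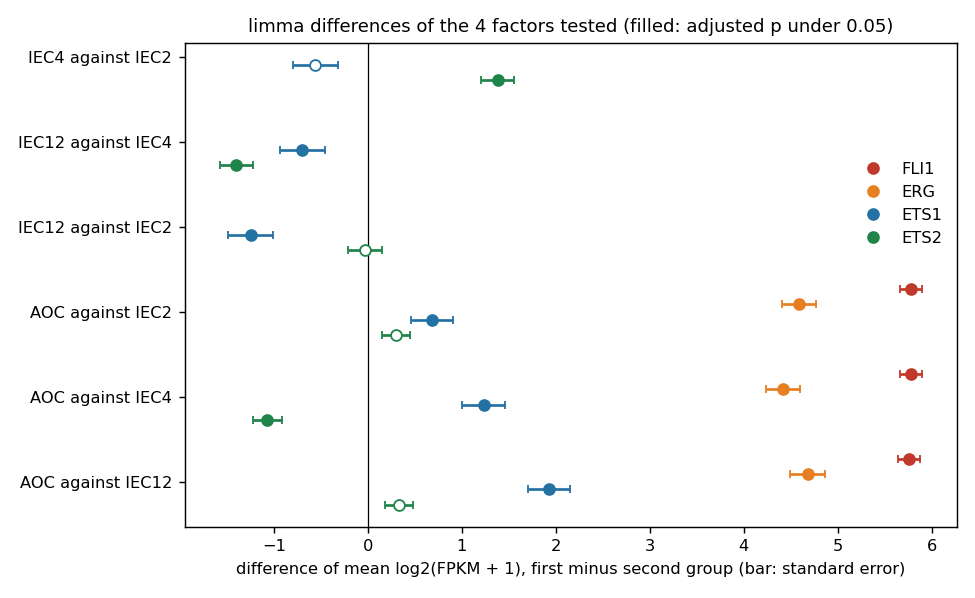
Difference of mean log2(FPKM + 1), first minus second group (horizontal axis, bars are standard errors), of FLI1, ERG, ETS1 and ETS2 in 6 comparisons (rows), with filled points where limma's adjusted p is under 0.05. FLI1 and ERG lie between 4.42 and 5.78 in the 3 comparisons with AOC and were not tested between stages, and ETS2 changes sign between IEC4 against IEC2 (1.38) and IEC12 against IEC4 (-1.40).

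The other 4 members were low in every library and did not pass the filter on low values. Their limma results below come from a fit with no such filter, in which every gene above 0 in any library was tested. ETV2 (ENSSSCG00000002906, chromosome 6 at 45085984 to 45089592), the early initiator of the endothelial programme, showed no higher level at days 2, 4 or 12 than in the line. Its FPKM was 0.0392, 0.214 and 0.0724 in IEC2, 0.0628, 0.0333 and 0.190 in IEC4, and 0.116, 0.167 and 0.259 in IEC12. These ranges overlapped from stage to stage. In AOC it was 0.647, 0.928 and 0.753, above all IEC libraries. The AOC mean was 7.15-fold that of IEC2, 8.13-fold that of IEC4 and 4.29-fold that of IEC12, with limma's adjusted p of 0.000105, 8.92e-05 and 0.000345. Between stages the ETV2 differences were -0.02 (IEC4 against IEC2), 0.11 (IEC12 against IEC4) and 0.09 (IEC12 against IEC2), each with SE 0.0798 and limma's adjusted p of 0.941, 0.362 and 0.472. Days between those sampled were not measured.

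LMO2 (ENSSSCG00000013307, chromosome 2 at 27033924 to 27055457) was listed at 0 in the 3 IEC2 libraries. It was above 0 in all 3 IEC4 libraries, at 0.198, 0.0419 and 0.287 FPKM. In IEC12 it was 0.0728, 0.0421 and 0. The stages at days 4 and 12 overlapped, and the difference of IEC4 from IEC2, 0.23 on the log2 scale (SE 0.0706), did not pass (limma's adjusted p = 0.0535). AOC held 0.434, 1.43 and 1.32, and its lowest library, replicate A, was above the highest IEC library. AOC differed from IEC2, IEC4 and IEC12 by 1.01, 0.78 and 0.95 (SE 0.169 each), with limma's adjusted p of 0.000749, 0.00348 and 0.00126.

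KLF2 (ENSSSCG00000038911, chromosome 2 at 61270733 to 61273037) was listed at 0 in 7 of 9 IEC libraries. The exceptions were IEC4 replicate A at 0.0884 and IEC12 replicate C at 0.0418. AOC held 0.948, 0.689 and 0.707, above all IEC libraries, and differed from IEC2, IEC4 and IEC12 by 0.83, 0.79 and 0.81 (SE 0.0571 each), with limma's adjusted p of 1.36e-06, 2.3e-06 and 2.09e-06. SOX18 (ENSSSCG00000037865, chromosome 17 at 62869868 to 62871758) was the 1 member found that was not highest in AOC or IEC4. It was listed at 0 in all of IEC2 and IEC4 and at 0, 0.131 and 0.0828 in IEC12. In AOC it was 0.0241, 0.0236 and 0.0234, within the range of IEC12, and none of its 6 comparisons passed the test (limma's adjusted p from 0.123 to 1). At such levels a difference was not detectable in these tables.

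Counted over members, 2 passed the filter in the stage comparisons and 4 in those with AOC. Between IEC4 and IEC2, 1 of 2 was called (ETS2, higher), where 37.3% of all 10542 genes tested were called and 24.8% were higher. Between IEC12 and IEC4 both were called lower, against 44.2% of all genes called and 26.9% lower. Between IEC12 and IEC2, 1 of 2 was called (ETS1, lower), against 43.6% called and 19.3% lower. AOC differed from IEC2 in 3 of 4 members, all higher, where 63.8% of 11053 genes were called and 26.7% were higher. It differed from IEC4 in 4 of 4, with 3 higher and ETS2 lower, against 69.1% of all genes, 22.1% higher and 47% lower. It differed from IEC12 in 3 of 4, all higher, against 58.5% called and 22.4% higher. Shares of called genes this large mean that the count of members alone says little.

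With no filter on low values, all 8 members were tested. AOC was higher than IEC2 in 6 of 8, where 41.1% of all genes were called and 18% were higher. It was higher than IEC4 in 6 and lower in 1 (ETS2), against 47.8% called, 15.2% higher and 32.6% lower, and higher than IEC12 in 6, against 38.2% called and 15.2% higher. Those 6 were ERG, FLI1, ETS1, ETV2, LMO2 and KLF2. Between stages 1 of 8 was called in each comparison, ETS2 between IEC4 and IEC2 (all genes 22.3%), ETS2 between IEC12 and IEC4 (26.1%) and ETS1 between IEC12 and IEC2 (24.3%).

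Far fewer genes passed a stricter rule of p and adjusted p under 0.001 with an absolute log2 difference above 3. ERG and FLI1, but neither ETS1 nor ETS2, passed it in each comparison with AOC. Since ERG and FLI1 passed the filter on low values only through AOC, a difference from the stages was built in. Over all genes, 5.47% passed between AOC and IEC2 (2.97% higher), 5.17% between AOC and IEC4 (2.11% higher) and 4.41% between AOC and IEC12 (2.13% higher). In the stage comparisons limma called 0 of the 2 members tested by this rule, against 1.18% of all genes for IEC4 and IEC2, 0.939% for IEC12 and IEC4 and 1.22% for IEC12 and IEC2. At an unadjusted p under 0.05 these counts were 2, 2 and 1, where 46.8%, 53% and 51.2% of all genes passed.

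Within the ETS family as a whole, AOC and the induced cells differed in which genes made up its transcripts. Of 24 ETS genes listed, 22 were found, and their summed FPKM in the libraries of AOC was 156 to 169. For IEC2 the sum was 182 to 206, for IEC4 143 to 150 and for IEC12 126 to 133. FLI1 was the leading ETS gene in each AOC library, with 30.4 to 35.3% of the family sum, and ERG and FLI1 together took 46.6 to 50.8%. In IEC2 the leading gene was ETV5, a PEA3-group factor downstream of FGF signalling, with 33.1 to 36.7%. It also led in IEC4, with 21.8 to 26.9%. In IEC12 GABPA, a factor used in most tissues, led with 37.9 to 53.3%. The ETS members described here (ERG, FLI1, ETV2, ETS1 and ETS2) together took 51.0 to 53.7% of the sum in AOC. Their share was 1.20 to 1.78% for IEC2, 1.87 to 2.94% for IEC4 and 0.459 to 0.840% for IEC12. The 4 groups did not overlap in this share.

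**Figure D3:**
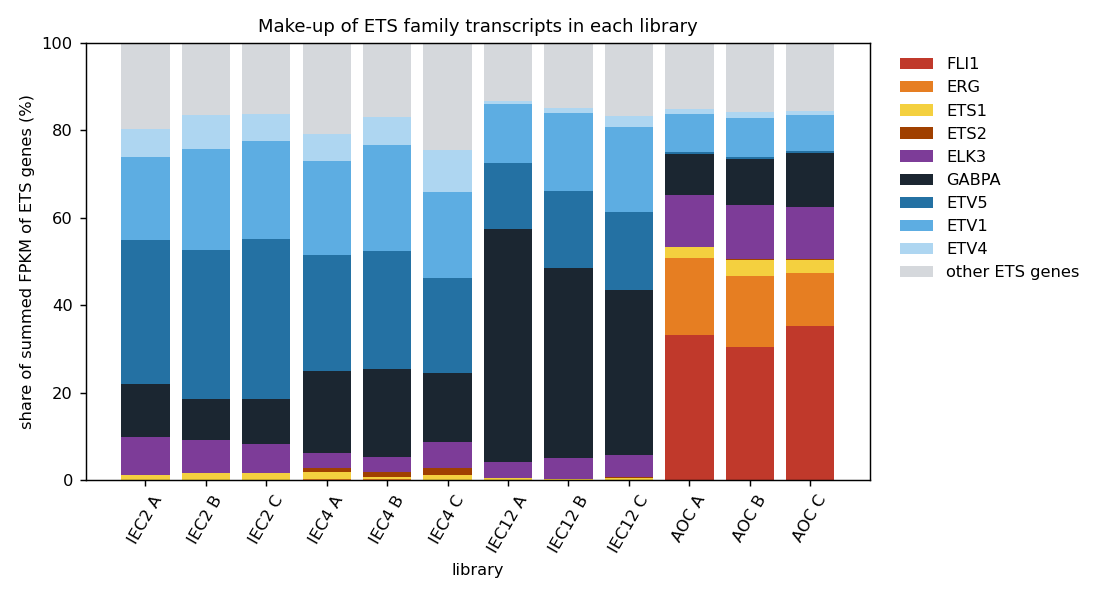
Share (%) of each ETS gene in the summed FPKM of the 22 ETS genes found, as stacked bars for the 12 libraries. FLI1 and ERG together take 46.6 to 50.8% in AOC, ETV5 is the leading gene in IEC2 and IEC4 (21.8 to 36.7%), and GABPA leads in IEC12 (37.9 to 53.3%).

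Among the ETS genes outside the members, both directions occurred between AOC and the stages, and the counts moved with the scaling. Of 19, 13 were tested. Against IEC2, AOC was higher in 2 and lower in 6, with a median difference of -0.32 on the log2 scale where that of all genes tested was -0.20. Against IEC4 it was higher in 3 and lower in 7 (median -0.58, all genes -0.45), and against IEC12 higher in 3 and lower in 3 (median 0.09, all genes -0.21). With median-of-ratios scaling the counts of higher and lower were 4 and 5 against IEC2, 5 and 6 against IEC4, and 5 and 3 against IEC12. With equal totals they were 0 and 8, 2 and 8, and 3 and 3. ETV5 showed the largest difference of these genes in each, with 0.664 ± 0.127 FPKM in AOC against 68.2 ± 7.77 in IEC2, 36.7 ± 4.84 in IEC4 and 21.7 ± 1.37 in IEC12 (SD, n = 3). ELK3, an ETS repressor expressed in endothelium, was higher in AOC (19.7 ± 1.09 FPKM) than in IEC4 (6.23 ± 2.03) and IEC12 (5.76 ± 0.822), with limma's adjusted p of 1.39e-05 and 1.14e-05.

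Between stages, ETS genes outside the members moved in both directions. From IEC2 to IEC4, 3 rose and 5 fell (median -0.29, all genes 0.20), or 2 and 6 with median-of-ratios scaling. The epithelial factor ELF3 rose from 1.23 ± 1.42 to 7.02 ± 3.46 FPKM (SD, n = 3, limma's adjusted p = 0.00808), while EHF, another epithelial ETS factor, fell from 8.27 ± 1.21 to 1.06 ± 0.765 (limma's adjusted p = 0.000319). From IEC4 to IEC12, 1 rose and 5 fell (median -0.43, all genes -0.15), or 2 and 4 with that scaling. GABPA rose from 26.7 ± 3.78 to 58.1 ± 11.7 (limma's adjusted p = 0.00104), and ELF3 fell to 0.108 ± 0.133 (limma's adjusted p = 0.00114). IEC12 against IEC2 had 1 higher and 7 lower (median -0.84, all genes 0.03).

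Of the 16 haemogenic partners listed, which include the genes whose products bind LMO2 and TAL1, all 16 were found. LYL1, a close relative of TAL1, was 2.38, 2.93 and 1.80 FPKM in AOC and listed at 0 in all 9 IEC libraries (limma's adjusted p = 2.9e-07, 3.54e-07 and 3.79e-07 against IEC2, IEC4 and IEC12). As with ERG and FLI1, it passed the filter only through AOC, so that it had to differ. GATA2, a GATA factor of blood and endothelial progenitors, was 0, 0 and 0.0176 in IEC2 and 1.42, 2.08 and 2.74 in IEC4. It reached 2.00, 4.21 and 6.59 in IEC12 and was 2.11, 2.05 and 1.76 in AOC. GATA2 thus rose between days 2 and 4 (log2 difference 1.59, SE 0.311, limma's adjusted p = 0.0034), while LMO2 reached at most 0.287 FPKM in any IEC library. TCF4, a ubiquitous partner of such factors, was 146 ± 10.1 FPKM in AOC against 25.6 ± 2.86, 18.9 ± 1.5 and 50.5 ± 9.85 in IEC2, IEC4 and IEC12 (SD, n = 3), and TCF12, its relative, was lower in AOC than in each stage.

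Over the list of haemogenic partners, every comparison held calls in both directions. From IEC2 to IEC4, 3 of 9 tested rose and 2 fell, among them SPI1, the ETS factor of myeloid cells, which is also in the ETS list (6.87 ± 2.02 to 1.57 ± 0.305 FPKM, limma's adjusted p = 0.000729). This balance turned to 1 higher and 3 lower with either median-of-ratios scaling or equal totals. From IEC4 to IEC12, 2 rose and 2 fell, with 3 and 1 by median-of-ratios scaling and 1 and 2 by equal totals. From IEC2 to IEC12, 4 rose and 2 fell, with 3 and 2, and 2 and 2, by these scalings. AOC was higher in 3 of 10 and lower in 4 against IEC2, higher in 3 and lower in 3 against IEC4, and higher in 3 and lower in 4 against IEC12. By either scaling 3 stayed the number higher, and the number lower was 3, 2 and 3 with median-of-ratios scaling and 5, 5 and 4 with equal totals. Medians were -0.08, 0.28, 0.50, -0.34, -0.29 and -0.25 in these 6 comparisons, against 0.20, -0.15, 0.03, -0.20, -0.45 and -0.21 over all genes.

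Among 16 other factors of endothelium, 14 were found and 9 tested. HEY2, a NOTCH target of arterial cells, was 17.0 ± 2.32 FPKM in AOC against 0.178 ± 0.037, 2.35 ± 1.56 and 1.27 ± 0.276 in IEC2, IEC4 and IEC12 (SD, n = 3). EPAS1, the hypoxia-inducible factor of endothelium, peaked at day 4 as ETS2 did, with 31.7, 21.9 and 13.5 FPKM in IEC4. Replicate A was the highest for EPAS1 and the lowest for ETS2. EPAS1 then fell to 0.0397, 0.0229 and 0.152 in IEC12, a log2 difference of -4.37 (SE 0.297, limma's adjusted p = 1.26e-05). MEF2C, a MADS-box factor of muscle and vessels, went the other way from ERG and FLI1, at 0.0105 ± 0.00705 FPKM in AOC against 5.19 ± 1.09, 2.89 ± 0.634 and 5.21 ± 0.661 in the 3 stages. In the list, 4 rose and 2 fell from IEC2 to IEC4, 3 rose and 2 fell from IEC4 to IEC12, and 2 rose and 3 fell from IEC2 to IEC12. AOC was higher in 3 and lower in 2 against IEC2, higher in 3 and lower in 4 against IEC4, and higher in 5 and lower in 3 against IEC12. Median log2 differences, in this order of comparisons, were 0.56, -0.04, 0.25, -0.27, -0.08 and 1.15. Those of all genes were 0.20, -0.15, 0.03, -0.20, -0.45 and -0.21. With median-of-ratios scaling the counts were 4 and 2 for AOC against IEC2 and 3 and 2 from IEC2 to IEC4, and otherwise unchanged. Equal totals gave 3 and 3 for AOC against IEC2, 2 and 4 against IEC4, and 2 and 2 from IEC4 to IEC12.

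Genes that ETS factors are known to bind in endothelium were, like ERG and FLI1, mostly high in AOC. Of 22 listed 16 were found, and 13 were tested against AOC. AOC was higher in 11 and lower in 2 (ENG and KDR) against IEC2, with a median log2 difference of 2.41 where that of all genes was -0.20. It was higher in 12 and lower in 1 (ENG) against IEC4 (median 2.31, all genes -0.45), and higher in 12 and lower in 0 against IEC12 (median 2.64, all genes -0.21). Of all genes tested, 26.7%, 22.1% and 22.4% were higher in AOC than in IEC2, IEC4 and IEC12. Most of the listed genes passed the filter through AOC alone, so these counts and medians were largely built in. Between stages only 3 were tested. CDH5 was 137, 134 and 103 FPKM in AOC. PECAM1, the adhesion molecule CD31, was 119, 131 and 91.7 in AOC, against 0.157 to 0.284 at day 2, 0.489 to 0.554 at day 4 and 0.0198 to 0.106 at day 12.

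KDR, the main VEGF receptor of endothelium and of its mesodermal precursors, was an exception to that pattern. Its FPKM was 2.45, 3.99 and 2.42 in IEC2, above the 1.32, 1.31 and 1.46 of AOC. It fell to 0, 0.302 and 0.154 in IEC4 (log2 difference -1.76, SE 0.194, limma's adjusted p = 0.00013) and was 0.0374, 0 and 0 in IEC12. In the fit of the stages KDR passed the filter on low values only through IEC2, so a fall from there was built in. KDR and ETS1 thus both had their highest stage mean at day 2, whereas ETV2 stayed under 0.26 FPKM in all stages.

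**Figure D4:**
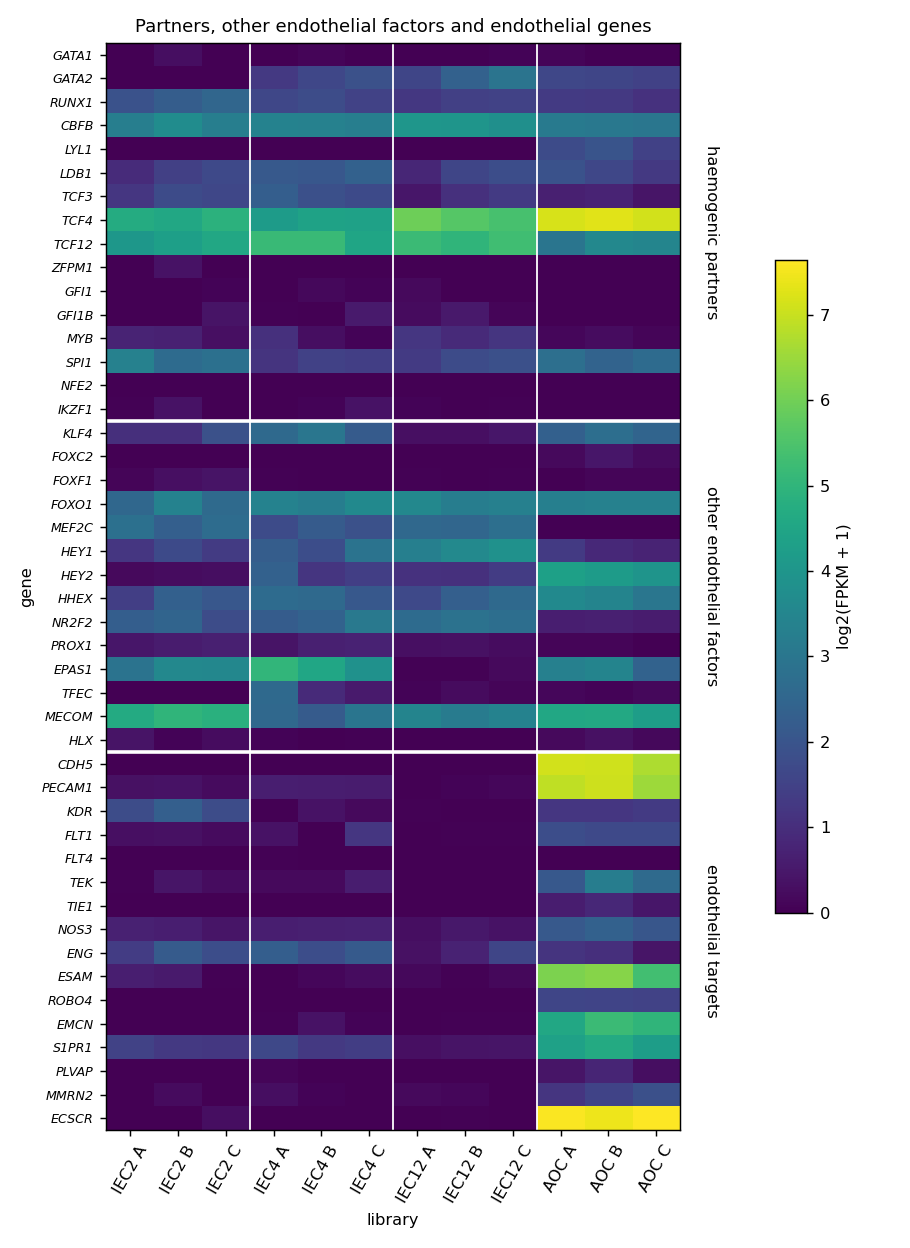
Heat map of log2(FPKM + 1) (colour scale) of haemogenic partners, other endothelial factors and endothelial genes bound by ETS factors (rows, 3 blocks) in the 12 libraries (columns). LYL1 and CDH5 are at 0 in all 9 IEC libraries and present in the 3 AOC libraries, and EPAS1 is highest in IEC4 (13.5 to 31.7 FPKM).

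Genes that KLF2 is known to control were followed through 7 of 10 found, 6 of them tested against AOC. AOC was higher in 4 and lower in 2 against IEC2, where 63.8% of all genes were called and 26.7% were higher. Against IEC4 it was higher in 3 and lower in 1 (all genes 69.1% called, 22.1% higher). Against IEC12 it was higher in 4 and lower in 0 (all genes 58.5% called, 22.4% higher). Of these genes, NOS3 passed the filter on low values only through AOC, so a difference from the stages was built in. NOS3, the endothelial nitric oxide synthase that KLF2 activates, was 3.58 ± 0.573 FPKM in AOC against 0.507 ± 0.14 in IEC2, 0.591 ± 0.0196 in IEC4 and 0.311 ± 0.102 in IEC12 (SD, n = 3). EDN1, which codes for endothelin-1 and is repressed by KLF2, was also highest in AOC, at 23.2 ± 2.34 FPKM against 1.4 ± 0.327, 1.6 ± 1.05 and 0.0565 ± 0.0139. NQO1 was lower in AOC (82.8 ± 8.59 FPKM) than in IEC2 (395 ± 136) and IEC4 (770 ± 56.9), and was 73.3 ± 16.6 in IEC12. ADAMTS1 was the other gene lower in AOC than in IEC2, with means of 0.538 and 2.82 FPKM. Between stages, 2 of 5 rose and 1 fell from IEC2 to IEC4, where 37.3% of all genes were called. From IEC4 to IEC12, 4 fell, against 44.2% of all genes called and 26.9% lower. These 4 included KLF4, the relative of KLF2, at 5.23 ± 1.7 FPKM in IEC4 and 0.286 ± 0.0875 in IEC12, where KLF2 itself was at 0 in 4 of the 6 libraries.

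Markers of blood cells were also listed, since LMO2 and SPI1 belong to the blood programme too. Of 9 markers 7 were found, and their summed FPKM was 46.2 to 84.8 in the line, 50.1 to 69.4 at day 2, 56.1 to 93.9 at day 4 and 41.6 to 70.8 at day 12, so the groups overlapped. KIT, which progenitors of several lineages carry, made up most of the sums in the stages. PTPRC, the pan-leukocyte marker CD45, was at 0 in AOC and at 2.14 to 3.49 in IEC4, and CD34, shared by progenitors and endothelium, was 18.2 to 34.1 in AOC and at most 0.193 in the stages. Their part in the member values was not tested.

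The 4 ETS members ETS1, FLI1, ERG and ETS2 lie as 2 neighbouring pairs. On chromosome 9 ETS1 and FLI1 are 100.7 kb apart, and on chromosome 13 ERG and ETS2 are 161.8 kb apart, with 0 RefSeq genes of Sscrofa11.1 lying wholly between the genes of a pair. The members of a pair did not share their whole pattern, although ETS1 and FLI1 were both highest in AOC. ETS1 was above 0 in all 9 IEC libraries while FLI1 was at 0 in 8 of them, and ETS2 peaked in IEC4 while ERG did so in AOC. Of the flanking genes, named here after their values were seen, KCNJ15, a potassium channel gene next to ERG, was 0.509 to 1.21 FPKM in AOC and 0 in all 9 IEC libraries. On the ETS2 side, BRWD1 was 12.2 to 19.9 FPKM in all 12 libraries, and HMGN1, a nucleosome-binding protein gene beyond it, was 79.6 to 102.6 in AOC against 1.6 to 18.4 in the stages. On the FLI1 side, ARHGAP32 was highest in IEC4, at 9.98 to 12.5 FPKM, and lowest in AOC, at 0.475 to 0.618.

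Genes whose log2(FPKM + 1) ran most like that of a member were ranked by Pearson's r over the 12 libraries among 9158 genes with a symbol. For ERG these were PECAM1 (r = 0.9977), CMAH (0.9975) and SCMH1 (0.9973), and for FLI1 VSIG2, CD96 and ECSCR, each at an r of at least 0.9997. With 9 libraries near 0 and 3 high, such values describe little more than presence in AOC, and 58 and 73 genes exceeded an r of 0.99 with ERG and FLI1. ETS1 was most like PPFIBP1 (0.9505), ATXN3 (0.9499) and NFKBIB (0.9362), an inhibitor of NF-kappa B with 13.8 FPKM in AOC and 5.77, 3.31 and 1.75 in IEC2, IEC4 and IEC12. ETS2 was most like KRT7 (0.9856), a keratin of simple epithelia, LMO7 (0.9843), found at cell junctions, and COL17A1 (0.9772), a collagen of epithelial attachment. KRT7 was 32.6 FPKM in IEC4 and 0.0861 to 0.886 by mean in the other groups. The 12 points share group structure, so these r values are descriptions.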

How the data were processed

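RNA was amplified by the Smart-Seq2 method, built into libraries with a SMARTER kit and sequenced on Illumina instruments. The submitters' processing notes name Bowtie2 2.2.3, TopHat2 2.0.12, Cufflinks 2.2.1 and the genome build susScr11, and the paper names the Galaxy tool. Whether strand was used is not given in the sources used here. The authors deposited 1 FPKM value per gene and library, with no counts of reads. Symbols came from a table of gene names that held 13998 of the 19681 identifiers, and coordinates from RefSeq genes of Sscrofa11.1, the same assembly.

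Values were tested as log2(FPKM + 1), a scale that understates changes of low genes, with limma 3.58.1 in R 4.3.3 (lmFit, contrasts.fit, eBayes with trend = TRUE). Stages were compared in a fit of 9 IEC libraries (10542 genes) and AOC in a fit of 12 (11053 genes), over genes that 3 or more libraries showed at an FPKM of 1 or above. Calls needed an adjusted p under 0.05, and the stricter rule uses the limits that the paper applied to its own gene list. P-values measure the spread between cultures lettered as replicates. Exact permutation tests of 3 against 3 libraries allow no two-sided p below 0.1 and were not used for calls. The test was tested on simulated data. Summaries and figures used Python 3.11.15, NumPy 2.4.6, pandas 2.3.3, SciPy 1.17.1 and matplotlib 3.10.9.

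The members and all gene lists were chosen with earlier results of these data known, so their counts are not independent evidence. Named genes are all members, up to 4 called genes of a list with the largest differences, and the 3 genes most like each member that reached an FPKM of 1 in 3 libraries. Genes named from marker lists, and others outside these rules, were chosen after their values were seen. Alternatives were a pseudocount of 0.1, no filter, fits of 2 groups or of all libraries, the replicate block, median-of-ratios scaling, equal totals, trend = FALSE, the stricter rule and each library left out.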

Additional observations from a re-analysis of the deposited data

How the results depend on the processing

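Of 236 alternative values in 18 tests of single members, 219 kept their direction and their side of the threshold, 10 lost the call, 6 gained one and 1 changed sign. The change of sign was ETS2 between IEC12 and IEC2, at 0.07 without IEC2 replicate B (limma's adjusted p = 0.806), where neither value passed, and its range with a library left out was -0.08 to 0.07. No call of ERG or FLI1 changed under the alternatives to the adjusted p rule, with differences from 4.25 to 7.91 for ERG and 5.61 to 9.08 for FLI1, the highest with a pseudocount of 0.1. As these 2 genes passed the filter only through AOC, a difference from the stages was built into their passing. The number of members called between IEC4 and IEC2 was 1, and was 2 with median-of-ratios scaling, 0 by the stricter rule and 1 to 2 with a library left out. Between IEC12 and IEC4 it was 2, and was 1 with no filter, in a fit of only the 2 groups (where ETS1 did not pass the filter) and with median-of-ratios scaling, 0 by the stricter rule, and 1 to 2 with a library left out. Between IEC12 and IEC2 it was 1 and 0 by the stricter rule. Between AOC and IEC2, IEC4 and IEC12 the counts of 3, 4 and 3 became 6, 7 and 6 with no filter, which tests more members, and the stricter rule gave 2 in each. The count against IEC2 was 4 with median-of-ratios scaling. It was 2 with equal totals, without AOC replicate B and without IEC2 replicate A. Against IEC12 it was 4 with median-of-ratios scaling, where ETS2 also passed. The median over all genes was shifted, to -0.45 between AOC and IEC4, and median-of-ratios scaling brought it to -0.05. That scaling put FLI1 in AOC at 63.7 and SOX18 at 0.0279 FPKM, and equal totals put them at 48.5 and 0.0213. With the replicate block the counts were 1, 2, 1, 3, 4 and 3, as without it. Whether cultures that share a letter came from the same induction is unknown. Correlations of deviations between such libraries ran from -0.514 to 0.246 over 18 pairs. With 3 libraries per group, these values cannot decide whether the letters pair the cultures. DESeq2 was not run because the values are FPKM. The unknown depth limits what can be said of ETV2, LMO2, KLF2 and SOX18, all under 1.5 FPKM.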
